A study of Mus musculus with 36 samples.

Results

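The Wnt pathway was examined through 42 of its genes, out of 22367 protein-coding genes of mouse chromosomes 1 to 19, X and Y in the GENCODE vM1 annotation of mm9. The genes were listed by their place in the pathway, with earlier results of these data known, and the rule itself uses no peak: 18 Wnt ligands, 12 receptors (the frizzled genes Fzd1 to Fzd10 and the co-receptors Lrp5 and Lrp6), 5 signal transduction genes, 4 TCF/LEF transcription factors and 3 secreted inhibitors. For each gene, ChIP-seq peaks were counted in a pair of windows. A peak was placed at a start site when its midpoint lay within 1 kb of any annotated transcription start of the gene, and near the gene when its midpoint lay inside the gene or within 50 kb of either end. Nearly all parts of the pathway carried peaks: 32 of the 42 genes had a start-site peak in at least 1 of the 9 lists (52.2% of all protein-coding genes did), and 42 of 42 had a peak within 50 kb in at least 1 list (81.1% of all genes).

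The series holds 36 ChIP-seq samples, and the peak lists of 9 of them were used: MBD3 and CHD4 in wild-type R1 embryonic stem cells (ESCs, replicates 1 and 2 of each), SIN3A in wild-type R1 ESCs (1 chromatin preparation had spike-in added and the other had none), ZFP296 in an ESC line that carries a tagged copy, and MBD3 and CHD4 in neural progenitor cells (NPCs) derived from wild-type R1 ESCs, with 1 list each. MBD3 and CHD4 belong to the nucleosome remodeling and deacetylase (NuRD) complex, SIN3A is the scaffold of another histone deacetylase complex, and ZFP296 is a zinc finger protein of pluripotent cells. ZFP296 was precipitated through GFP, and the line is labelled as R1 ESCs with a ZFP296 BAC, whereas in the study's methods the tagged ZFP296 was made in KH2 ESCs. The ESCs grew in serum and LIF with the 2i inhibitors, which the study's methods name as PD0325901, an inhibitor of MEK, and CHIR99021, an inhibitor of GSK3 that stimulates the Wnt pathway. The NPC medium, with bFGF and EGF, held no CHIR99021 according to the methods, so cell type and a direct stimulus of the pathway studied here cannot be told apart. No group used here carries a knockout of Zfp296. The remaining 27 samples were not analysed here, and since no expression was measured in these files the cell labels could not be checked against marker genes.

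The lists held from 2304 peaks (NPC MBD3) to 29974 peaks (ESC CHD4 replicate 2). In the latter list each of the 29974 names mentions Zfp219 and a BAC, although the sample is labelled wild type, so counts are also given for ESC CHD4 replicate 1 alone. The lists give positions and, for each peak, the authors' value on a −log10 scale, but no read counts, so amounts of binding were not compared between lists and the depth behind a peak is unknown. Where a factor had a pair of ESC lists, its ESC sites are those peaks of the shorter list which share 1 bp or more with any peak of the longer one. No test of ESCs against NPCs was possible, because NPCs had 1 list per factor, and p-values over genes were not computed.

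Wnt ligands are secreted lipid-modified proteins that bind frizzled receptors together with the co-receptors LRP5 and LRP6. Without a ligand, a complex built on AXIN and APC holds β-catenin (Ctnnb1) for phosphorylation by GSK3β and for destruction. With a ligand, or when GSK3 is inhibited, β-catenin accumulates, enters the nucleus and joins the TCF/LEF factors at DNA that holds the core CTTTGAA or CTTTGAT. In mouse ESCs this pathway supports self-renewal and relieves repression by TCF7L1, whereas in the developing nervous system Wnt ligands pattern the neural tube.

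The genomic sequence under the leading peaks is shown first, with the short strings it held, of which the AP-1 string was found mainly in the NPC lists. All sequences are of the plus strand of mm9, and capitals mark each match, on either strand, to the TCF/LEF strings above, the POU5F1 octamer ATGCAAAT, the SOX2 string CCATTGT, the AP-1 strings TGACTCA and TGAGTCA (which are each other's reverse complement) and the telomere unit TTAGGG. Peaks longer than 300 bp are shown by their central 300 bp. The following are, in ESC MBD3 sites, ZFP296 peaks, NPC MBD3 peaks and NPC CHD4 peaks, those with the highest value near any of the 42 genes among peaks outside annotated untranslated regions.
Fzd10 start site, ESC MBD3 site, chr5:129106147-129106446: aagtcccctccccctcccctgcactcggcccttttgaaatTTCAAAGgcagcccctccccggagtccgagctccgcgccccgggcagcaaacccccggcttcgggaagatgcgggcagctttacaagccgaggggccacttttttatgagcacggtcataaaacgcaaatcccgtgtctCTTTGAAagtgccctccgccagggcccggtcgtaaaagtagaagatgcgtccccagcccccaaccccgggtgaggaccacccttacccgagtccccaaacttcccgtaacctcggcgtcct
Wnt5b downstream, ESC ZFP296, chr6:119368844-119369143: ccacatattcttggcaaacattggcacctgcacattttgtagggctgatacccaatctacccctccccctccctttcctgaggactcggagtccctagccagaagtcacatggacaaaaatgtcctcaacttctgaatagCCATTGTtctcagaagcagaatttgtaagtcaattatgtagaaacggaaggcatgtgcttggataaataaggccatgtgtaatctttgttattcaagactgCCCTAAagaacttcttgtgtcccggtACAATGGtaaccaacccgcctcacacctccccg
Wnt5b downstream, NPC MBD3, chr6:119346314-119346523: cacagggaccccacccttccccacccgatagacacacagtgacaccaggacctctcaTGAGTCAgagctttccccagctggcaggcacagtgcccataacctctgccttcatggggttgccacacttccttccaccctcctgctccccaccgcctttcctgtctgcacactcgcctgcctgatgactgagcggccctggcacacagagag
Wnt2 downstream, NPC CHD4, chr6:17928421-17928720: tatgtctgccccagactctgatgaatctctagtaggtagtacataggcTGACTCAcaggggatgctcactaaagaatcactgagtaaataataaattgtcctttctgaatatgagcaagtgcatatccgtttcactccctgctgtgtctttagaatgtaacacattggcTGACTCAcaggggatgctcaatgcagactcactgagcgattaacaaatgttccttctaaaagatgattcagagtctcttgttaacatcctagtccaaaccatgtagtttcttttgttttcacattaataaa
The Fzd10 sequence (61.7% GC) held the TCF/LEF string at 2 places, and the Wnt5b sequence under ZFP296 (46.3% GC) held the SOX2 string at 2 places. The NPC sequences carried the AP-1 string, which the Wnt2 sequence (39.3% GC) held at 2 places.

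Further peaks, at Axin2, Tcf7l1, Wnt7b and Lef1, were picked because they hold a string and so are no evidence of how often it occurs. Those of ZFP296 in ESCs hold the TCF/LEF string or the octamer, and those of MBD3 in NPCs hold the AP-1 string.
Axin2 upstream, ESC ZFP296, chr11:108754461-108754640: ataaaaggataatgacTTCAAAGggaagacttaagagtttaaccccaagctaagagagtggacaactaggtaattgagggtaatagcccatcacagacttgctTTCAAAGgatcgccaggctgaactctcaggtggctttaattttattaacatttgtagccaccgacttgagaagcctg
Tcf7l1 intron, ESC ZFP296, chr6:72703814-72704099: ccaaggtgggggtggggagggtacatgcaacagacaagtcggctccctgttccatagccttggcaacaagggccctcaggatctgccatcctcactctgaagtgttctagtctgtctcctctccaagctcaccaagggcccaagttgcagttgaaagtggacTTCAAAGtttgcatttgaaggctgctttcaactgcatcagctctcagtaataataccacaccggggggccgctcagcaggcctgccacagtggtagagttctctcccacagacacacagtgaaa
Tcf7l1 intron, ESC ZFP296, chr6:72708475-72708708: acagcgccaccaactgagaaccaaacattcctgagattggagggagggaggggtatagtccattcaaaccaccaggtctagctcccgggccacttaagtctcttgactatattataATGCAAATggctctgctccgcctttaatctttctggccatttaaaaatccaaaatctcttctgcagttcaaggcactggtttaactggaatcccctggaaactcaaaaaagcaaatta
Wnt7b intron, NPC MBD3, chr15:85405023-85405322: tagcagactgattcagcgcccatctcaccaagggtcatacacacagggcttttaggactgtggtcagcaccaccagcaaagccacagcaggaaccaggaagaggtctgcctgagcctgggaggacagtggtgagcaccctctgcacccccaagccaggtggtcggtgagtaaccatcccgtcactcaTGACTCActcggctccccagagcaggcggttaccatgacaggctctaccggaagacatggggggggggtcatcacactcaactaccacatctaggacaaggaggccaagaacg
Axin2 downstream, NPC MBD3, chr11:108841924-108842223: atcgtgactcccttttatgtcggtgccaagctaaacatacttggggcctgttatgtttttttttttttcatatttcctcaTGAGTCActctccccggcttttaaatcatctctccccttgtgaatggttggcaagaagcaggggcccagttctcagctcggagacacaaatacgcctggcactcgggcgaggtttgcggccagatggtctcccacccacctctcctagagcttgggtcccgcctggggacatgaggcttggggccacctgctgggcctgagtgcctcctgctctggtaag
Lef1 upstream, NPC MBD3, chr3:130788253-130788446: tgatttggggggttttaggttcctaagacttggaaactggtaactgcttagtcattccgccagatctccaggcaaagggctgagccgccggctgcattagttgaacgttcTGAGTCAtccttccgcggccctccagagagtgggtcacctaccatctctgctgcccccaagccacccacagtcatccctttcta
The Axin2 sequence under ZFP296 held the TCF/LEF string at 2 places, and each of the other sequences in this set held 1 match.

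Over the peaks within 50 kb of the 42 genes, the AP-1 string lay in the central 200 bp of 8 of 16 NPC MBD3 peaks and 32 of 85 NPC CHD4 peaks, but of 0 of 2 ESC MBD3 sites, 0 of 43 ESC CHD4 sites and 0 of 21 ZFP296 peaks. In the longer ESC lists it lay, for replicate 2 of MBD3, in 4 of 47 peaks and, for replicate 2 of CHD4, in 8 of 166 (8.51% and 4.82%, against 4.06% and 4.69% of those lists). The same search over each whole list found AP-1 in 47.7% of NPC MBD3 peaks, 42.3% of NPC CHD4 peaks, 3.32% of ESC MBD3 sites, 4.75% of ESC CHD4 sites and 3.73% of ZFP296 peaks, so the NPC peaks near Wnt genes held it about as often as their lists. The TCF/LEF string lay under 4 of 21 ZFP296 peaks (12.9% of that whole list), near Axin2, Tcf7, Tcf7l1 and Wnt5b, and under 0 of 16 NPC MBD3 peaks (4.34% of the list). For CHD4 the shares lay close together in the 2 cell types, with 6 of 85 NPC peaks (7.06%), 4 of 43 ESC sites (9.30%) and 13 of 166 peaks of ESC replicate 2 (7.83%). These were near the shares of the whole lists, 6.42%, 8.08% and 7.32%. In ESC MBD3 replicate 2 it lay under 10 of 47 peaks (12.2% of the list). The SOX2 string lay under 3 of 21 ZFP296 peaks and the telomere unit under 4 of 21 (6.32% and 10.3% of the list). These are matches of letters and were given no test.

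At start sites, SIN3A lay at more of these genes than the other factors in the lists as deposited, but not with lists of equal length. The list without spike-in placed SIN3A at 24 of 42 genes and the list with spike-in at 21, against 41.2% and 33.8% of all protein-coding genes, and sites shared by both lists lay at 16 genes (28.8% of all genes). CHD4 of replicate 2 lay at 17 genes and of replicate 1 at 6 (22.8% and 8.49% of all genes), and the ESC CHD4 sites at 6 (5.92%). MBD3 lay at 5 start sites in replicate 1 and 3 in replicate 2 (2.36% and 3.43% of all genes), with 1 gene, Fzd10, shared as an ESC MBD3 site (0.805%). ZFP296 lay at 3 start sites (2.88% of all genes). In NPCs, MBD3 lay at 2 and CHD4 at 10 (2.49% and 13.1% of all genes). With 42 genes, 1 gene is 2.38 percentage points, so the shares of the short lists rest on few genes. With each list reduced to its 2304 highest peaks, SIN3A lay at 3 start sites in either list (9.15% and 9.47% of all genes), CHD4 at 3 in either ESC list (1.52% and 1.89%) and MBD3 at 5 and 2 (2.31% and 0.993%).

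**Figure D1:**
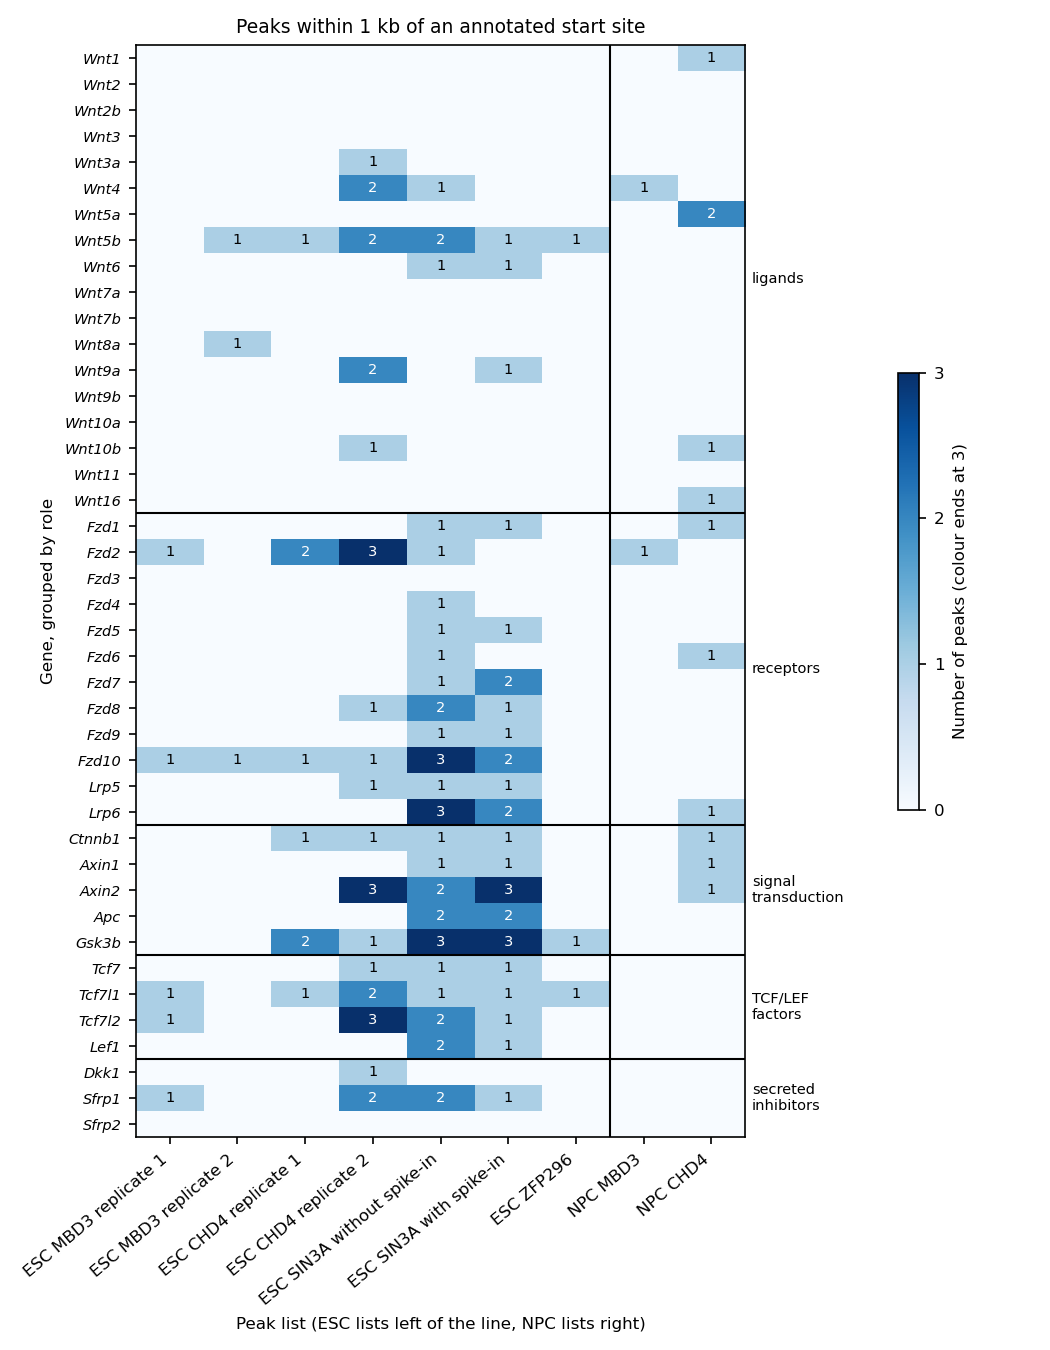
Number of peaks within 1 kb of an annotated start site for the 42 Wnt pathway genes (rows, grouped by role) in the 9 peak lists (columns). Numbers and colour both give the count and blank cells are 0. SIN3A peaks lie in all receptor, signal transduction and TCF/LEF rows but Fzd3 (41.2% and 33.8% of all genes without and with spike-in). No list has a start-site peak at 8 of the 18 ligands, as at 47.8% of all protein-coding genes.

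Within 50 kb, CHD4 and SIN3A lay near most of the genes. CHD4 of replicate 2 lay near 34 genes and of replicate 1 near 23 (67.7% and 43.0% of all genes), and ESC CHD4 sites near 23 (36.8%). SIN3A lay near 33 genes without and 31 with spike-in (65.1% and 59.2% of all genes), and SIN3A sites near 26 (53.5%). NPC CHD4 lay near 32 genes (57.9% of all genes), NPC MBD3 near 13 (15.7%) and ZFP296 near 13 (21.9%). ESC MBD3 replicate 1 lay near 7 genes (15.8% of all genes), replicate 2 near 25 (33.1%), and the MBD3 sites that both lists share near 2 (10.1%), Fzd2 and Fzd10. The 42 genes are longer than the average gene, with a median of 24662 bp against 15427 bp over all protein-coding genes, and this widens their windows. Per Mb of window, NPC MBD3 had 2.67 peaks near the 42 genes and 1.45 near all genes, ESC MBD3 replicate 2 had 8.34 and 4.52, ZFP296 had 3.67 and 2.39, and ESC MBD3 sites had 0.334 and 0.952. ESC MBD3 replicate 1 went the other way, with 1.33 and 1.65. SIN3A without spike-in had 16.2 in both, and with spike-in 10.3 and 11.3, so on this scale SIN3A was not denser near the 42 genes.

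**Figure D2:**
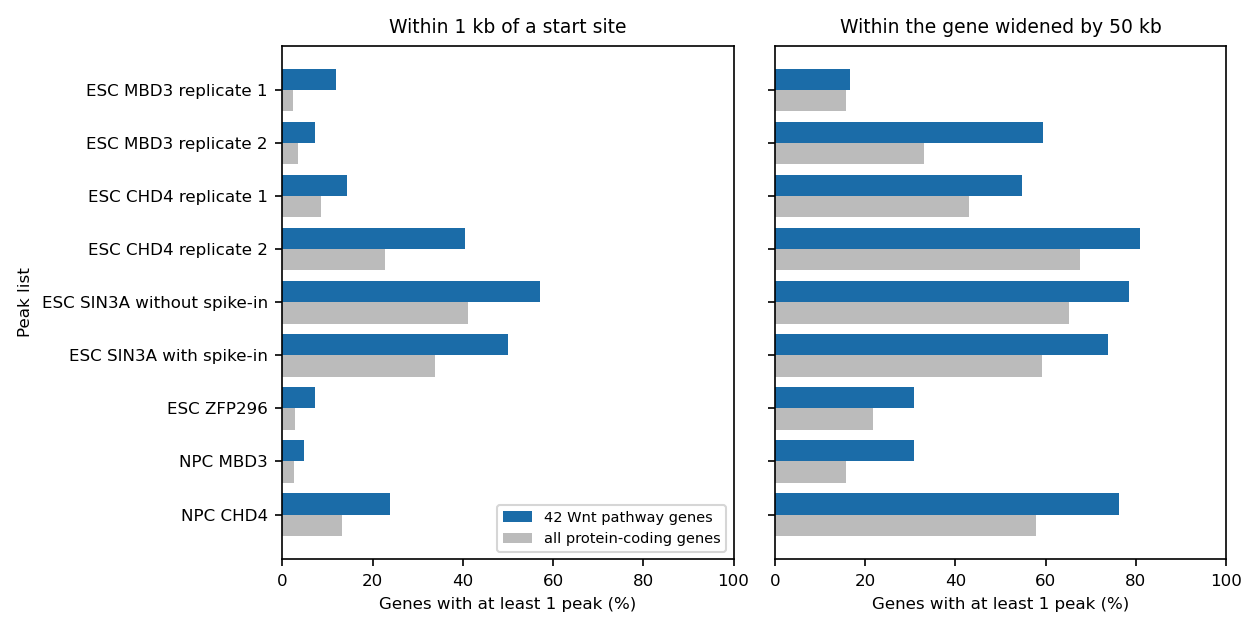
Share of the 42 Wnt pathway genes (blue) and of all 22367 protein-coding genes (grey) with at least 1 peak in each list, at start sites (left) and within the gene widened by 50 kb (right). The blue bar is the longer of each pair in all 9 lists and both windows, by as little as 16.7% against 15.8% for ESC MBD3 replicate 1 within 50 kb. The windows of the right panel, but not those at start sites, are wider for the 42 genes by the median.

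The pair of ESC MBD3 lists shared little around these genes. Replicate 1 placed 7 distinct peaks within 50 kb of the 42 genes and replicate 2 placed 47, and 2 of each overlapped, which is 28.6% of the former and 4.26% of the latter. Over the whole lists the shares were 64.3% and 20.7%. Both peaks with support in the pair also overlapped CHD4 and SIN3A sites. Of the 47 replicate 2 peaks, 35 (74.5%) overlapped a peak of ESC CHD4 replicate 2, against 72.5% of the whole list, and 12 (25.5%) overlapped a ZFP296 peak, against 20.9%. Of the 7 replicate 1 peaks, 5 overlapped a SIN3A site (26.7% of the whole list did).

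**Figure D3:**
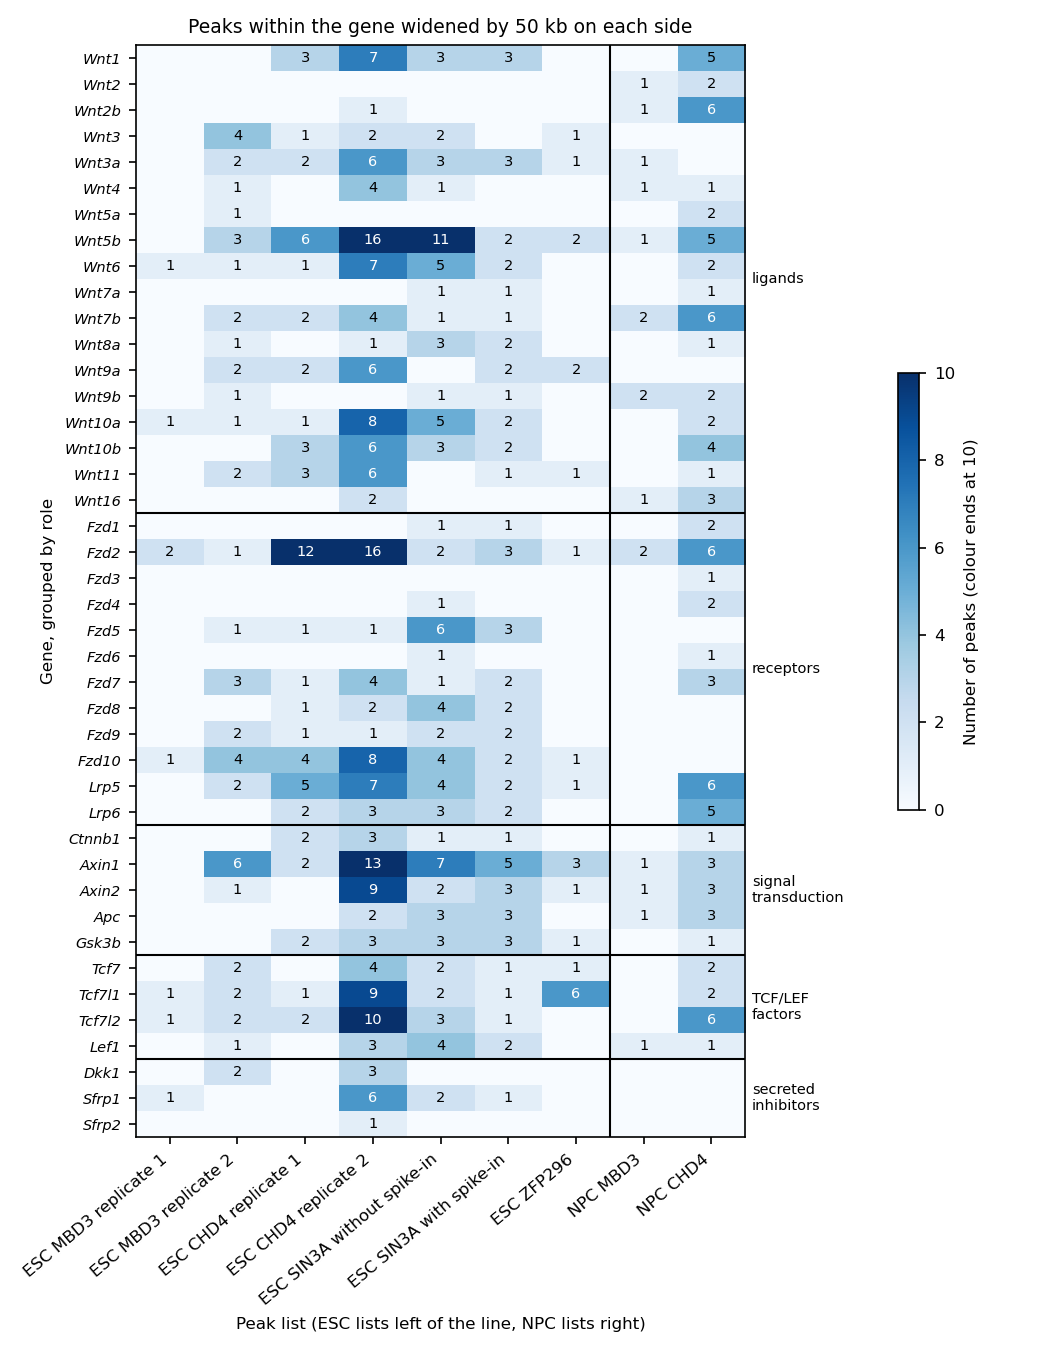
Number of peaks within the gene widened by 50 kb for the 42 genes (rows, grouped by role) in the 9 lists (columns). Numbers give the count, blank cells are 0 and the colour scale ends at 10. Wnt5b (16), Fzd2 (16) and Axin1 (13) hold the highest counts in ESC CHD4 replicate 2, and Tcf7l1 (6) holds the highest in ZFP296. No NPC peak lies near the 3 secreted inhibitors (57.9% of all genes have an NPC CHD4 peak and 15.7% an NPC MBD3 peak). Of 14 other inhibitors, not drawn here, 11 have an NPC CHD4 peak.

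No list had a start-site peak at 8 of the 18 ligand genes, Wnt2, Wnt2b, Wnt3, Wnt7a, Wnt7b, Wnt9b, Wnt10a and Wnt11, a share near that of all protein-coding genes with none (47.8%). SIN3A lay at the start sites of 3 ligands in the list without spike-in (Wnt4, Wnt5b and Wnt6) and of 3 in the list with it (Wnt5b, Wnt6 and Wnt9a), and SIN3A sites at 0. Over all genes these shares were 41.2%, 33.8% and 28.8%. The values were 10.4 at Wnt4, 14.2 and 8.13 at Wnt5b and 8.24 at Wnt6 without spike-in, and between 6.82 and 6.90 with it. Within 50 kb, ESC CHD4 sites lay near 10 of the 18 ligands (36.8% of all genes), NPC CHD4 peaks near 15 (57.9%) and NPC MBD3 peaks near 8 (15.7%). ZFP296 peaks lay near 5 (21.9% of all genes) and ESC MBD3 sites near 0 (10.1%).

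Wnt5b, a ligand of β-catenin-independent signalling, held the most ESC CHD4 sites of the ligands, 5. Its annotation spans chr6:119382549-119494336 on the minus strand, with 3 start sites. At 111788 bp it is the longest of the ligand genes, followed by Wnt7a with 47383 bp, so its window is the widest. Several of its peaks, with most of those of SIN3A without spike-in, lay nearest to Adipor2 or Fbxl14. Within 50 kb it held 0 and 3 MBD3 peaks in ESC replicates 1 and 2, 6 and 16 CHD4 peaks, 11 and 2 SIN3A peaks without and with spike-in, and 2 ZFP296 peaks. NPC MBD3 had 1 peak there and NPC CHD4 had 5. Its internal start site was covered in ESC MBD3 replicate 2 (value 10.3), both CHD4 lists (10.6 and 16.3), SIN3A without spike-in (14.2) and ZFP296 (3.84, rank 3041 of 3102), whereas no NPC peak lay at a Wnt5b start site. The highest SIN3A peaks near any of the 42 genes lay inside Wnt5b, with values of 46.9 and 52.6 (ranks 195 of 16170 and 93 of 11422), but the start site nearest to the latter, at 224 bp, belonged to Fbxl14. The ZFP296 peak printed above (15.7) and the NPC MBD3 peak printed above (20.7, rank 85 of 2304) both lay downstream of Wnt5b, closest to Adipor2.

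In NPCs, CHD4 lay within 50 kb of 15 of the 18 ligands and MBD3 of 8 (57.9% and 15.7% of all genes). Wnt3, Wnt3a and Wnt9a had no NPC CHD4 peak there. CHD4 lay at the start sites of 4 ligands (13.1% of all genes). Several of the ligands with NPC peaks are known from the nervous system, but ligands were not compared by this trait. NPC CHD4 lay at the start sites of Wnt1, which patterns the midbrain, at 77 bp (value 6.0), of Wnt5a, another ligand of β-catenin-independent signalling, at 227 and 241 bp (6.0 and 6.63), of Wnt10b at 373 bp (6.66) and of Wnt16 at 665 bp (8.13). These values rank between 12046 and 17064 of 20234, in the lower part of the list. No ESC CHD4 list had a start-site peak at Wnt1, Wnt5a or Wnt16, and replicate 2 had 1 at Wnt10b. NPC MBD3 had 2 peaks in the introns of Wnt7b (18.3 and 11.5), a ligand of the developing forebrain and its vessels. It also had 1 beyond the end of Wnt2 (12.9) and 2 beyond Wnt9b (9.03 and 7.50, both closest to Gosr2). Further NPC MBD3 peaks lay upstream of Wnt16 (8.20) and in an exon of Wnt2b (8.03). All of these NPC MBD3 peaks overlapped an NPC CHD4 peak. The NPC MBD3 peaks near Wnt3a (4.66, closest to Mrpl55) and at the start site of Wnt4 (7.02) did not, and the latter overlapped peaks of ESC CHD4 replicate 2 and of SIN3A without spike-in.

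The ligands of ESCs with ZFP296 nearby were Wnt3, the ligand needed for the primitive streak, and Wnt3a, Wnt5b, Wnt9a and Wnt11. The Wnt3 peak (11.3) lay 90468 bp from the start site, beyond the end of the gene and nearest to Nsf, and overlapped no peak of another list. The Wnt11 peak (6.36) lay 19554 bp upstream within an ESC CHD4 site (18.3), and Wnt11 held 3 ESC CHD4 sites against 1 NPC CHD4 peak. Wnt8a had 1 start-site peak, of ESC MBD3 replicate 2 (11.1), and Wnt3a had 1, of ESC CHD4 replicate 2 (11.015). Neighbouring ligands share windows, so their counts are not independent: Wnt1 and Wnt10b, 11706 bp apart, shared 2 of 2 ESC CHD4 sites and 4 NPC CHD4 peaks, Wnt6 and Wnt10a, 6196 bp apart, shared 7 CHD4 peaks of replicate 2, and Wnt3a and Wnt9a, 16175 bp apart, shared 1 ZFP296 peak.

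SIN3A lay at the start sites of most receptors and of few ligands, a difference between roles that was not tested. It lay at 11 of 12 receptor genes in the list without spike-in, at 8 of 12 with it, and as a site of both lists at 7. Over all genes these shares were 41.2%, 33.8% and 28.8%. Roles were not counted with lists of equal length. The highest start-site values without spike-in were 25.3 at Fzd10, 21.5 at Fzd5, 17.5 at the co-receptor gene Lrp6 and 17.2 at Fzd1. Lower values were found at Fzd9 (12.2), Fzd8 (10.7), the co-receptor gene Lrp5 (10.3) and Fzd2 (8.24), and the lowest at Fzd4 (7.49), Fzd6 (7.40) and Fzd7 (7.40). The list with spike-in had no peak at Fzd2, Fzd4 and Fzd6, and Fzd3 had no start-site peak in any list and 1 NPC CHD4 peak (9.56) within 50 kb. ESC CHD4 sites lay at the start sites of 2 receptors, Fzd2 and Fzd10, and NPC CHD4 at 3, Fzd1 (7.07), Fzd6 (6.0) and Lrp6 (12.6), each of which overlapped a SIN3A peak of ESCs. ZFP296 lay at no receptor start site. Over all genes the start-site shares were 5.92% for ESC CHD4 sites, 13.1% for NPC CHD4 and 2.88% for ZFP296.

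Fzd10 was the only one of the 42 genes with an MBD3 site of both ESC lists at its start (chr5:129105992-129106602, value 13.5, rank 308 of 2344 in replicate 1, and 16.5, rank 558 of 7551, in replicate 2). CHD4 covered the same place with values of 10.9 and 19.1 in replicates 1 and 2, and SIN3A with 25.3 and 11.1 without and with spike-in, so all 6 lists of these factors in ESCs met there. Within 50 kb the counts were 1 and 4 for MBD3, 4 and 8 for CHD4, 4 and 2 for SIN3A and 1 for ZFP296. NPC MBD3 and NPC CHD4 both had 0. The ZFP296 peak (9.93) lay 21452 bp upstream and overlapped peaks of ESC MBD3 replicate 2 (12.9), ESC CHD4 replicate 2 (16.5) and SIN3A without spike-in (7.79). The start-site sequence of Fzd10 is the one printed above with the TCF/LEF string at 2 places. That string lay in the central 200 bp of 1 of the 2 ESC MBD3 sites near the 42 genes, and of 12.8% of all ESC MBD3 sites.

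Fzd2 held the most ESC CHD4 sites of the 42 genes, 10, from 12 peaks in replicate 1 and 16 in replicate 2, while the median over the 42 genes was 1 site and over all genes 0. The highest, with values of 28.1 and 39.0, lay 36544 bp upstream, and 2 lay at the start site (12.9 and 8.66 in replicate 1). All sites but these 2 start-site ones lay nearest to another gene, Gm11627 or Gm1564, so their link to Fzd2 rests on distance only. Around 24792 bp upstream of Fzd2 all 7 ESC lists had overlapping peaks, of MBD3 (9.12 and 13.9), CHD4 (7.59 and 22.2), SIN3A (14.1 and 12.4) and ZFP296 (16.6, rank 248 of 3102 and the highest ZFP296 value near any of the 42 genes). This place lay 178 bp from the start of Gm11627, so its link to Fzd2 rests on distance only. In NPCs Fzd2 held 6 CHD4 peaks and 2 MBD3 peaks, none of which overlapped an ESC CHD4 site. Its start-site NPC MBD3 peak (6.90) overlapped that of ESC MBD3 replicate 1 (9.67). The longer list, ESC CHD4 replicate 2, did overlap NPC peaks near Fzd2. Its peaks with values of 9.33, 11.6 and 8.92 overlapped NPC CHD4, and that of 5.56 overlapped the start-site NPC MBD3 peak. Lrp5 and Lrp6, the co-receptors, held 2 and 1 ESC CHD4 sites and 6 and 5 NPC CHD4 peaks. In the single ESC lists, replicates 1 and 2, CHD4 had 5 and 7 peaks near Lrp5 and 2 and 3 near Lrp6. These genes span 101740 and 120490 bp, which widens their windows.

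**Figure D4:**
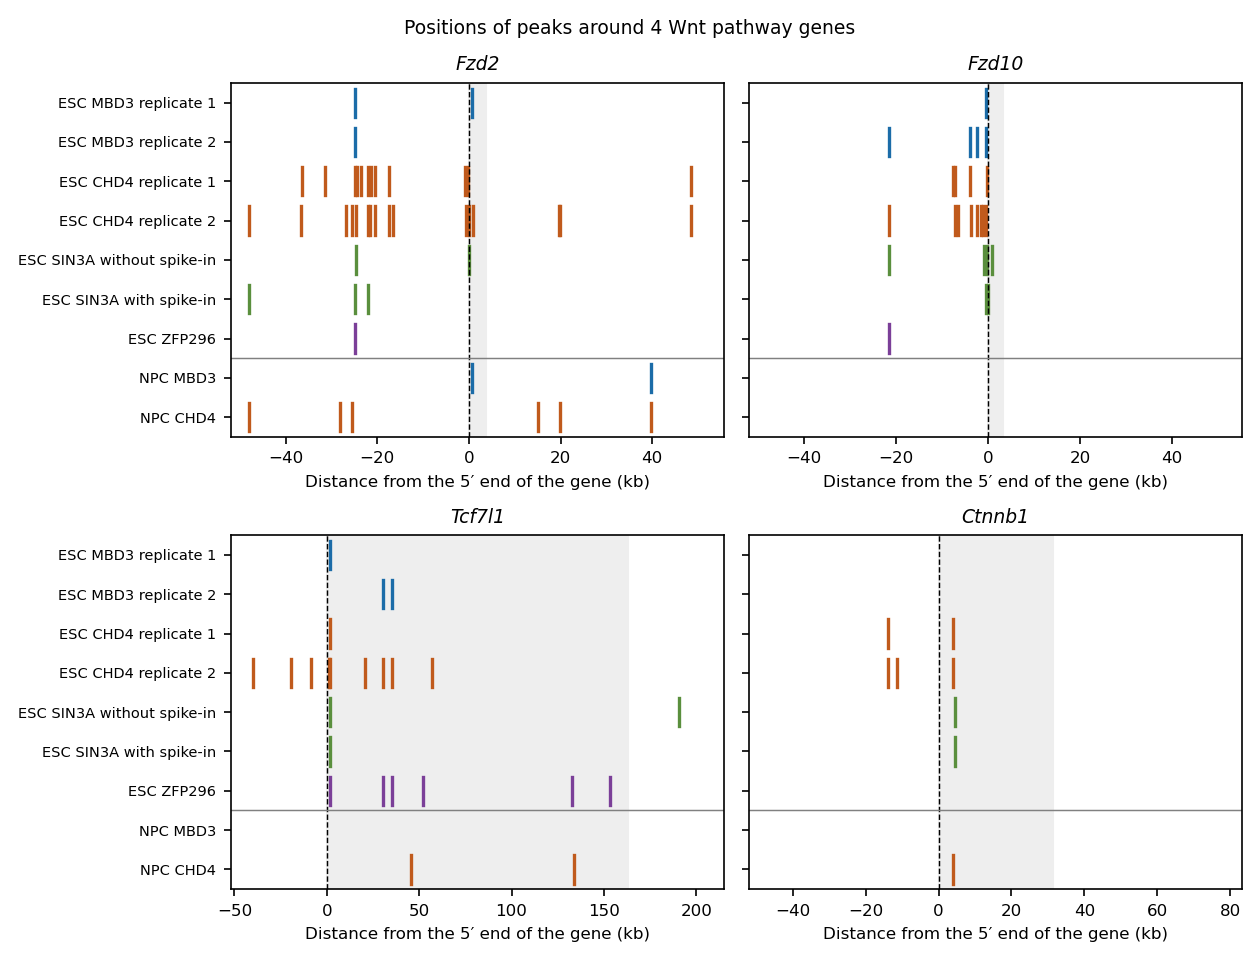
Positions of peaks around Fzd2, Fzd10, Tcf7l1 and Ctnnb1, as distance in kb from the 5′ end of the gene (dashed line, positive in the direction of transcription). Each tick is the midpoint of 1 peak in the list named at the left (blue MBD3, orange CHD4, green SIN3A, purple ZFP296), grey shading is the gene, and the horizontal line parts ESC from NPC lists. Fzd10 has ticks in all 7 ESC lists and none in the NPC lists, and Tcf7l1 has 6 ZFP296 ticks.

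The signal transduction genes carried SIN3A at the start sites of all 5 members, in both lists (41.2% and 33.8% of all genes without and with spike-in). They have 4 to 13 annotated start sites each, and the median over all genes is 2. CHD4 reached its highest values here. At Ctnnb1, which encodes β-catenin, the CHD4 peak at an annotated start site inside the gene had values of 32.4 in ESC replicate 1 (rank 68 of 11712) and 22.1 in replicate 2 (rank 1233 of 29974), and of 49.0 in NPCs (rank 34 of 20234), the highest near any of the 42 genes in replicate 1 and in NPCs. No MBD3 peak of either cell type and no ZFP296 peak lay within 50 kb of Ctnnb1. SIN3A lay beside it and overlapped the NPC CHD4 peak (chr9:120842459-120843185, value 11.1 with spike-in, and 19.2 in the overlapping peak without it).

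Axin2, an inhibitor of the pathway that is also its classic target gene, held the highest start-site SIN3A peak of the 42 genes in the list without spike-in, 33.3 (rank 508 of 16170), and 3 start-site peaks with spike-in (16.8, 18.5 and 16.8), of which 2 held the TCF/LEF string. ESC CHD4 replicate 2 had 3 start-site peaks at Axin2 and replicate 1 had 0, and NPC CHD4 had 1 (5.13). ZFP296 lay 27113 bp upstream (7.52) and NPC MBD3 37139 bp from the nearest start, beyond the gene (14.5), the places of both Axin2 sequences printed above. Gsk3b, the kinase that CHIR99021 inhibits, had ZFP296 at 920 bp before a start site (11.7), overlapping an ESC CHD4 site (8.11) and a SIN3A peak without spike-in (15.6), and no NPC peak at its start sites. Axin1, the scaffold of the destruction complex, held 3 ZFP296 peaks from 26784 to 28320 bp upstream (4.76 to 5.93), all of which overlapped peaks of ESC MBD3 replicate 2, whose highest value near the 42 genes lay there (23.5), and of ESC CHD4 replicate 2. The start site nearest to them was that of Tmem8. At Axin1 itself the start-site SIN3A values were 10.3 and 7.73, and NPC CHD4 had a start-site peak (6.35). Apc, the other scaffold, had SIN3A at its start sites (13.7 and 10.7 without spike-in, 6.90 and 5.86 with it) and held in an intron the highest peak of ESC CHD4 replicate 2 near these genes (39.8, rank 109 of 29974). NPC CHD4 had an overlapping peak there (19.7), and ESC CHD4 replicate 1 had none.

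All 4 TCF/LEF genes carried SIN3A at a start site in both lists (41.2% and 33.8% of all genes without and with spike-in). None carried an NPC peak there, against 13.1% of all genes for CHD4 and 2.49% for MBD3. The 4 genes have 3 to 17 annotated start sites each, and the median over all genes is 2. Tcf7l1, the factor that represses target genes in ESCs, had 6 ZFP296 peaks, the most of the 42 genes. Of these, 1 lay 791 bp from a start site (10.998, rank 832 of 3102) and overlapped MBD3 of replicate 1 (9.20), CHD4 of both ESC replicates (16.0 and 20.2) and SIN3A of both lists (11.9 and 12.4). The other 5 lay in introns, with values from 4.42 to 9.08, and the pair at 29718 and 34353 bp from the start, which hold the octamer and the TCF/LEF string, also overlapped peaks of ESC MBD3 replicate 2 and ESC CHD4 replicate 2. The 6 peaks are spread over a gene of 162877 bp, and 2 of them lay nearest to the start of Gm15401. Counts of the other lists within 50 kb were 1 and 2 for MBD3, 1 and 9 for CHD4, 2 and 1 for SIN3A, and 0 and 2 for NPC MBD3 and CHD4.

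Tcf7l2, a factor of the nervous system and gut, had 6 NPC CHD4 peaks within 50 kb (6.20 to 19.7), 1 ESC CHD4 site and no ZFP296 peak. In the single ESC lists, replicates 1 and 2, CHD4 had 2 and 10 peaks there. Tcf7l2 spans 191845 bp and is the longest of the genes examined, so its window is the widest. MBD3 of replicate 1 lay at its start site with a low value (4.02, rank 2280 of 2344). Lef1, an activator, had a place 25040 bp upstream where NPC MBD3 (14.2), NPC CHD4 (15.9) and ESC CHD4 replicate 2 overlapped, with the AP-1 string printed above, and SIN3A sites at its start (8.99) and upstream. Tcf7 had SIN3A at its start sites (8.46 and 5.29) and 1 ZFP296 peak 41721 bp upstream (5.39).

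The 3 secreted inhibitors had no NPC peak and no ZFP296 peak within 50 kb. This did not extend to 14 other inhibitors of the pathway, counted in the same windows. NPC CHD4 peaks lay near 11 of them, NPC MBD3 peaks near 4 and ZFP296 peaks near 1 (57.9%, 15.7% and 21.9% of all genes). Sfrp1, which binds Wnt ligands, had start-site peaks of MBD3 replicate 1 (7.02), CHD4 replicate 2 (15.4 and 10.2) and SIN3A (16.8 and 9.30 without spike-in, 14.4 with it). Dkk1, which blocks LRP5 and LRP6, had a start-site peak in CHD4 replicate 2 only (13.2), with 2 MBD3 peaks of replicate 2 within 50 kb. Sfrp2 had 1 peak in all 9 lists together, of CHD4 replicate 2, which lay 35046 bp downstream and ranked high (31.9, rank 283 of 29974). None of the 3 had an ESC CHD4 or MBD3 site supported by a pair of lists within 50 kb (36.8% and 10.1% of all genes did).

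CHD4 of ESCs and NPCs was compared by genes and by places. By genes, 16 of the 42 had both an ESC CHD4 site and an NPC CHD4 peak within 50 kb (29.2% of all genes), 7 had an ESC site and no NPC peak (7.68%), 16 had an NPC peak and no ESC site (28.8%) and 3 had neither (34.4%). Those of ESCs only were Wnt3, Wnt3a, Wnt9a, Fzd5, Fzd8, Fzd9 and Fzd10, and those of NPCs only were Wnt2, Wnt2b, Wnt4, Wnt5a, Wnt7a, Wnt8a, Wnt9b, Wnt16, Fzd1, Fzd3, Fzd4, Fzd6, Axin2, Apc, Tcf7 and Lef1. With the longer ESC list, replicate 2, in place of the sites, the 16 genes of NPCs only fell to 8 (8.62% of all genes). With replicate 1 alone there were again 16 (24.5% of all genes). By places, 2 of the 43 ESC CHD4 sites near these genes overlapped an NPC CHD4 peak (4.65%, against 13.1% of all ESC CHD4 sites), which is 2 of the 85 NPC peaks (2.35%, against 5.42%). With ESC replicate 1 alone, 3 of the 85 NPC peaks overlapped (3.53%, against 6.33% of the list). With replicate 2 alone, 16 of the 85 overlapped (18.8%, against 14.7%), so the small overlap was not seen with the longer ESC list. The pair of shared sites lay at the Ctnnb1 start site and 31409 bp upstream of Wnt7b, where values were 10.6 in ESC replicate 1 and 25.8 in NPCs. At start sites, 6 genes had an ESC CHD4 site, 10 had an NPC CHD4 peak, and Ctnnb1 was the gene in common, which is 1 of the 10 NPC genes, against 20.1% over all genes. With ESC replicate 1 alone it was again 1 of the 10, against 25.5% over all genes. With ESC replicate 2 in place of the sites, 3 of the 10 were in common (Wnt10b, Ctnnb1 and Axin2), against 57.5% over all genes.

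**Figure D5:**
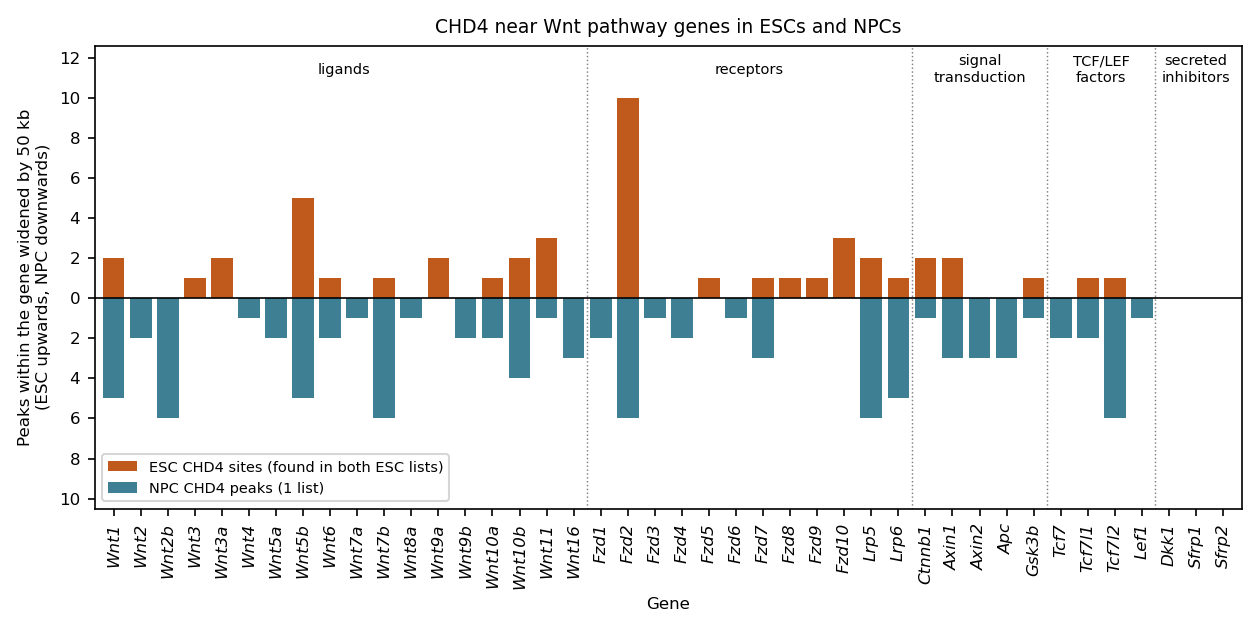
Number of ESC CHD4 sites (orange, upwards) and of NPC CHD4 peaks (blue-green, downwards) within the gene widened by 50 kb, for the 42 genes grouped by role. Fzd2 has the tallest ESC bar (10), Wnt2b, Wnt7b, Fzd2, Lrp5 and Tcf7l2 have the longest NPC bars (6 each), and Fzd10 has 3 ESC sites and no NPC peak.

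The genes with the most NPC CHD4 peaks were Wnt2b, Wnt7b, Fzd2, Lrp5 and Tcf7l2, with 6 each, and those with the most ESC CHD4 sites were Fzd2 (10), Wnt5b (5), Wnt11 (3) and Fzd10 (3), followed by 7 genes with 2. The sites of ESCs and the peaks of NPCs come from lists of different make-up, the former needing support in 2 lists, so these counts are set side by side without a test. In NPCs, MBD3 near the 42 genes mostly lay where CHD4 did: 12 of 16 NPC MBD3 peaks overlapped an NPC CHD4 peak (75.0%, against 84.9% of the whole list), and 0 of 16 overlapped an ESC MBD3 site (3.04% of the list). Of the 21 distinct ZFP296 peaks near the genes, 7 overlapped an ESC CHD4 site (33.3%, against 39.9% of the list), 1 an ESC MBD3 site (4.76%, against 20.1%), 2 a SIN3A site (9.52%, against 17.9%) and 0 a peak of either NPC list. Peaks counted here were nearest to a start site of the 42 genes in 11 of these 21 ZFP296 peaks, 9 of 16 NPC MBD3 peaks, 60 of 85 NPC CHD4 peaks and 25 of 43 ESC CHD4 sites, the rest lying closer to another gene.

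The places of the peaks are given for each pair of a gene and a peak or site. Of 44 pairs of a gene and a SIN3A site within 50 kb, 21 (47.7%) were at a start site and 1 (2.27%) in an intron. For ESC CHD4 sites 7 of 47 pairs (14.9%) were at a start site and 23 (48.9%) upstream of the gene, for NPC CHD4 11 of 91 (12.1%) at a start site and 21 (23.1%) in introns, for ZFP296 3 of 22 (13.6%) and 7 (31.8%), and for NPC MBD3 2 of 16 (12.5%) and 8 beyond the end of the gene. Median values near the 42 genes and over the whole list were 8.61 and 8.62 for NPC MBD3, 8.56 and 9.06 for NPC CHD4, 6.95 and 8.43 for ZFP296, and 9.63 and 8.86 for ESC CHD4 sites.

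The other genes of the pathway, 52 agonists, inhibitors, cytoplasmic and nuclear components and target genes, were counted in the same windows. At start sites, SIN3A sites lay at 19 of 52 (36.5%), NPC CHD4 at 12 (23.1%), ESC CHD4 sites at 2 (3.85%), NPC MBD3 at 3 (5.77%), ZFP296 at 2 (3.85%) and ESC MBD3 sites at 1 (1.92%), beside the shares of all genes given above. ESC MBD3 sites lay within 50 kb of 9 of the 52 (17.3%), against 2 of the 42. Cdx1, a target gene in the posterior embryo, was the one with an ESC MBD3 site at its start, with 2 and 1 MBD3 peaks in replicates 1 and 2, 1 and 2 CHD4 peaks and 1 ZFP296 peak there, and 0 peaks of both NPC lists. ZFP296 also lay at the start of Ror2, a receptor for WNT5A, with 4 ZFP296 peaks within 50 kb. NPC MBD3 lay at the start sites of Lgr6, a receptor for R-spondins, with 4 NPC CHD4 start-site peaks, of Bcl9l, a co-activator of β-catenin, with 1, and of Tle1, a co-repressor of the TCF/LEF factors, with 0.

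The counts at start sites depend on which transcription starts are annotated: with the most upstream start of each gene alone, the genes with an ESC CHD4 site at the start fell from 6 to 3 and those with a ZFP296 peak from 3 to 1. Within 50 kb, with every list reduced to its 2304 highest peaks, NPC CHD4 lay near 7 genes (16.7%, against 16.2% of all genes), ESC CHD4 sites near 4 (9.52%, against 7.27%), SIN3A without spike-in near 6 (14.3%, against 25.1%), ZFP296 near 10 (23.8%, against 17.5%) and NPC MBD3 near 13 (31.0%, against 15.7%).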

How the data were processed

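ChIP-seq peak lists of 9 of 36 samples were used, and 27 samples were not analysed here. Per the study's methods and the submitters' notes, the authors aligned reads to mm9 with BWA, kept unique reads, removed duplicates with SAMtools and called peaks per sample with MACS2 2.0 against input of the same cell line. The deposited lists give positions and a −log10 value per peak, whether of p or q is not given in the sources used here. No read counts were used, so depth is unknown. Names of the MBD3, CHD4 and ZFP296 lists mention equal read numbers, those of SIN3A do not, and the SIN3A list without spike-in has a higher lowest value (4.21).

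Peak midpoints were assigned to GENCODE vM1 genes with Python 3.11.15, sequences were read with pyfaidx 0.9.0.4 and figures drawn with matplotlib 3.10.9. Scripts were tested on simulated data. Genes and lists were chosen with earlier results of these data known. Named were genes with a start-site peak, with an ESC MBD3 site or an NPC MBD3 or ZFP296 peak within 50 kb, the 5 with most CHD4 sites or peaks, and the highest peak of each list. The further sequences and the most upstream start site were chosen after seeing the data. Other windows, assignments, thresholds and list lengths were tried as alternatives.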

Additional observations from a re-analysis of the deposited data

How the results depend on the processing

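The counts of genes were recomputed with other windows, peak assignments, thresholds and lists, and 86 recomputed counts stayed within 1.5 times the reported one while 28 moved further. Equal list lengths moved 8 counts, the most of any setting. With 1 ESC list left out, genes with MBD3 at the start ranged from 3 to 5 (1 with both lists) and within 50 kb from 7 to 25 (2), with CHD4 at the start from 6 to 17 (6), and with NPC CHD4 and no ESC CHD4 from 8 to 16 (16). Within 10 kb of the gene, MBD3 sites lay near 1 gene, CHD4 sites near 14, ZFP296 near 5, NPC MBD3 near 6 and NPC CHD4 near 21. Within 100 kb, MBD3 sites lay near 4 and ESC CHD4 without NPC CHD4 near 3. Counting a peak only for the nearest start site gave 1 gene for MBD3 sites, 8 for ZFP296 and 8 for NPC MBD3. A start-site window of 500 bp gave 1 gene each for ZFP296 and NPC MBD3. With lists of 2304 peaks each, CHD4 sites lay at 2 start sites and near 4 genes, SIN3A sites at 2 and near 3, NPC CHD4 at 1 and near 7, ESC CHD4 alone near 2 and NPC CHD4 alone near 5. With the most upstream start only, an alternative chosen after seeing the data, CHD4 sites lay at 3 and ZFP296 at 1. The causes were not tested. No count moved beyond 1.5 times with values of at least 5, any overlap of 1 bp, a window to 5 kb downstream, or 50 kb from a start site. No paired analysis was possible because the lists hold no values per sample over common features and no result comes from a test.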
